A study of Mus musculus with 11 samples.

Results

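This account covers 8 genes that make, sense or remove adenosine in the embryonic mouse heart. They are the 4 adenosine receptors (*Adora1*, *Adora2a*, *Adora2b* and *Adora3*), the ectonucleotidases *Entpd1* and *Nt5e*, and the adenosine-removing enzymes *Ada* and *Adk*. They were chosen by name as a pathway, with earlier results of these data known. They were read from a table of 55487 gene identifiers, of which 24177 genes held enough counts to be tested. All 8 were among the genes tested, although *Adora3* was near the lower limit with 37 counts in all. RNA was sequenced from 11 hearts at E14.5, 1 library per heart: 5 from Pde2A-/- embryos, homozygous for the germline tm1Dgen allele of the phosphodiesterase gene *Pde2a*, and 6 from Pde2A+/+ embryos, all on the mixed B6; 129P2 background. The embryos came from matings between heterozygotes, and the litter of each heart was not given. Pde2A breaks down cAMP and cGMP, and cAMP is the messenger that adenosine receptors raise or lower.

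Sense-strand counts came to between 35865537 and 42835382 in each heart. *Pde2a* itself had between 0 and 2 counts in every heart, so the labelled genotypes could not be checked by it. A readthrough gene overlaps *Pde2a* on the same strand, and a read that lies on both is counted on neither. These counts thus do not give its level in either genotype. Markers of cardiomyocytes were abundant in both genotypes (12 genes with a summed level of 37128 to 42464 CPM, normalized to library size, in Pde2A-/- and 35993 to 49208 CPM in Pde2A+/+ hearts), although 3 of the 12, *Tnni1*, *Ttn* and *Nkx2-5*, were lower and 0 higher by edgeR, and 6 were lower by DESeq2. The Pde2A+/+ replicate 7 stood apart in the summed level of 7 thymus genes, with 70.7 CPM against 1.76 to 3.21 CPM in the other 10 hearts. Not all of the 7 genes were high in it.

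Adenosine is a short-lived local signal. ATP that leaves stressed or active cells is cut to AMP on the cell surface by CD39, the product of *Entpd1*, and AMP is cut to adenosine by CD73, the product of *Nt5e*. The receptors encoded by *Adora2a* and *Adora2b* couple to stimulatory G proteins and raise cAMP, whereas those of *Adora1* and *Adora3* couple to inhibitory G proteins and lower it. Adenosine is carried into cells and is then either phosphorylated back to AMP by adenosine kinase (*Adk*) or turned into inosine by adenosine deaminase (*Ada*). In the heart, the *Adora1* receptor slows the rate and opposes adrenergic drive, and the *Adora2a* receptor is known for widening coronary vessels and for restraining leukocytes.

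Levels of different genes were compared per length of exon, as CPM per kb of merged exons, and neighbouring genes in the order were set apart only where their ranges over hearts did not overlap. In Pde2A+/+ hearts *Adk* had the highest level, 19.1 ± 1.98 CPM per kb (SD, n = 6), with no overlap with the next gene. *Adora2a* (5.16 ± 0.632), *Entpd1* (4.89 ± 0.299) and *Adora1* (3.99 ± 0.626) followed, and within this run each gene's range overlapped that of the next. *Ada* (1.29 ± 0.361) and *Nt5e* (1.11 ± 0.0803) also overlapped. *Adora2b* (0.315 ± 0.139) and *Adora3* (0.0311 ± 0.00666) came last and stood clear of each other and of the rest. With the longest transcript in place of merged exons, only 4 of the 8 genes kept their place, because *Entpd1* then lay above *Adora2a* and *Nt5e* above *Ada*. In Pde2A-/- hearts the same 4 genes led, from *Adk* (15.7 ± 0.601 CPM per kb, n = 5) through *Adora2a* (9.18 ± 3.32) and *Entpd1* (5.92 ± 0.198) to *Adora1* (3.93 ± 0.652), and *Entpd1* and *Adora1* no longer overlapped.

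**Figure D1:**
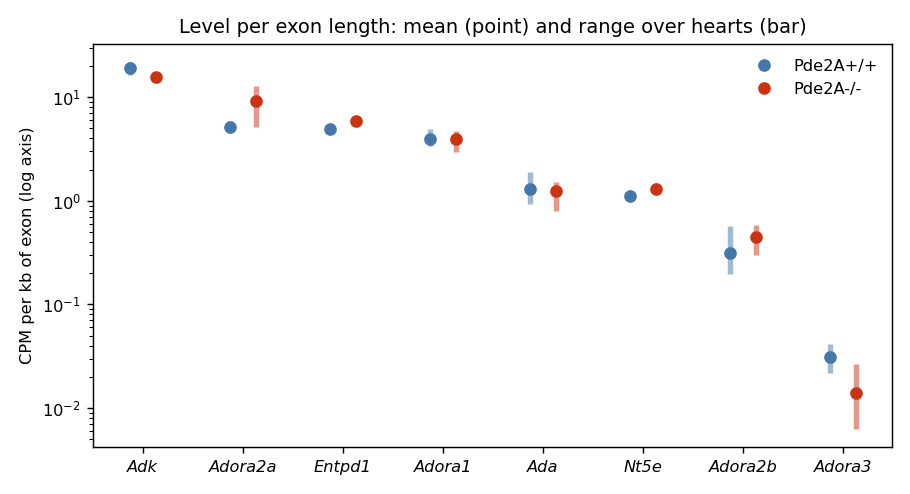
Level of each of the 8 adenosine genes per length of exon, in CPM per kb on a log axis, for 6 Pde2A+/+ hearts (blue) and 5 Pde2A-/- hearts (red). Points are means and bars are the lowest to highest heart; *Adk* is highest and *Adora3* lowest in both genotypes, and the *Adora2a* bar is the longest among the 4 highest genes in Pde2A-/- hearts.

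Of the 8 genes, 2 were higher and 1 was lower in Pde2A-/- than in Pde2A+/+ hearts at an adjusted p under 0.05 (edgeR's quasi-likelihood test, Benjamini-Hochberg adjustment over all genes tested). Among all genes tested, 8.93% were higher and 5.67% lower by the same rule. These shares include many genes with few counts and were not matched for level. Hearts of the 2 genotypes had separate ranges for *Entpd1* and *Nt5e*, that is 2 of 8 genes, and for 8.49% of all genes tested. The log2 fold changes of the 8 genes had a median of 0.11, against −0.02 for all genes tested.

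**Figure D2:**
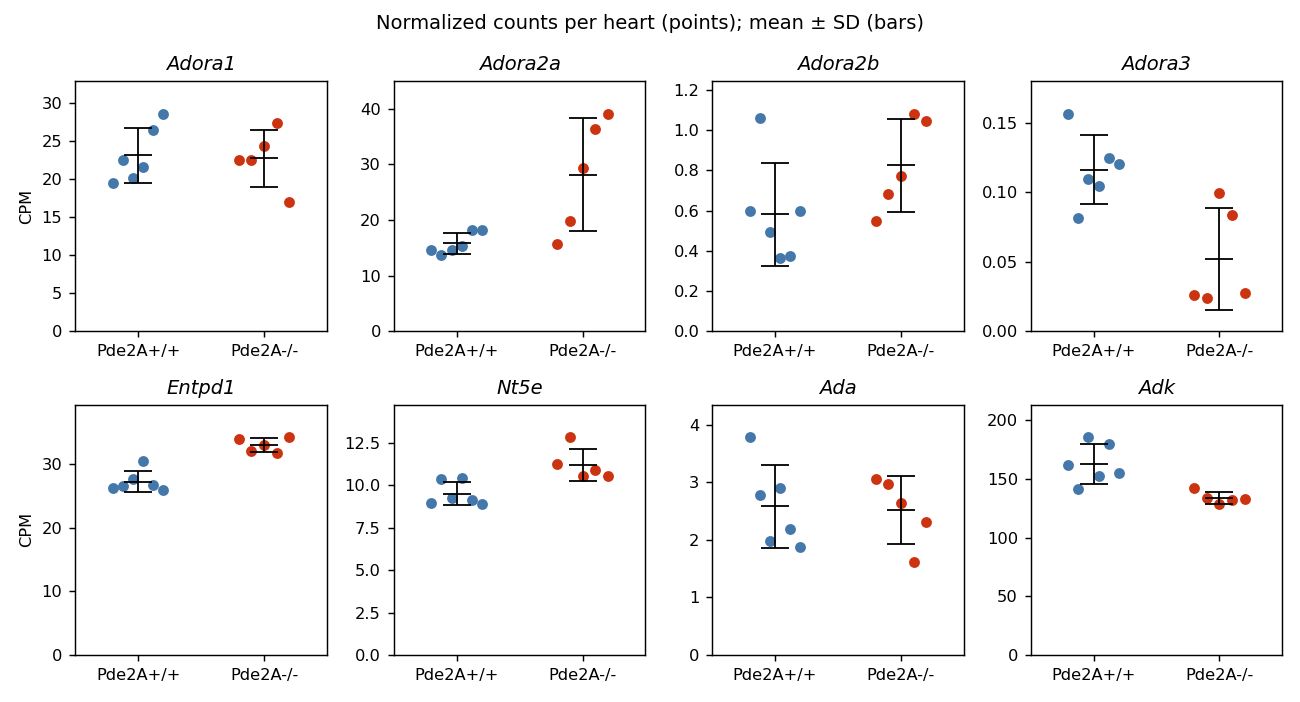
Normalized counts of the 8 genes in CPM, 1 panel per gene with the axis from 0, each point 1 heart (blue, 6 Pde2A+/+; red, 5 Pde2A-/-), with mean ± SD as bars. All 5 red points lie above the blue points for *Entpd1* and *Nt5e*, 4 of 5 do for *Adora2a*, and 4 of 5 lie below them for *Adk*.

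*Adora2a* had no entry in the promoter table and was not searched. The first promoter listed for the called genes *Entpd1*, which rose, and *Adk*, which fell, is shown because its letters can be searched for the elements through which cAMP and low oxygen are known to act on genes. The sequences are the 250 bases before the RefSeq start in GRCm38.p6, on the plus strand, chr19:40612116-40612365 for *Entpd1* and chr14:21052324-21052573 for *Adk*. Capitals mark TGACG, the core of a cAMP response element, and ACGTG or GCGTG, the cores of a hypoxia response element, on either strand.
Entpd1: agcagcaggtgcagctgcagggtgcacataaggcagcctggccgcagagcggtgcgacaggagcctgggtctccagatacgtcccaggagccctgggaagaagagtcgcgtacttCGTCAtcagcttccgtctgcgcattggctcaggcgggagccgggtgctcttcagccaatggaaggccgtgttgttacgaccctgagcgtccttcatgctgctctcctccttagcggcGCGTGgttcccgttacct
Adk: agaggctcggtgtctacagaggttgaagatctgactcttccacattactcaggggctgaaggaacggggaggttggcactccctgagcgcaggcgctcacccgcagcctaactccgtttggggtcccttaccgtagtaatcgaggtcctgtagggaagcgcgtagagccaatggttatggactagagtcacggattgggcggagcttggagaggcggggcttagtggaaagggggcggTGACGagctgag

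This *Entpd1* promoter held TGACG on the minus strand, from 135 to 131 bases before the start, and GCGTG on the plus strand, from 18 to 14 bases before it. This *Adk* promoter held TGACG on the plus strand, from 12 to 8 bases before the start, and neither ACGTG nor GCGTG. The second promoter listed for each gene differed: that of *Entpd1* held TGACG on the minus strand, from 183 to 179 bases before the start, and no GCGTG, and that of *Adk* held GCGTG, from 153 to 149 bases before it, and no TGACG. Over 32851 RefSeq promoters of the same length, 17.8% held TGACG, 16.6% ACGTG and 28.2% GCGTG, so that such matches are common. The full element TGACGTCA, which contains TGACG, was in 1.55% of all promoters and in none of the 10 promoters listed for 7 of the 8 genes, 2 of them each for *Adora1*, *Adk* and *Entpd1*. A match in these letters is a description and not a binding site.

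*Adora2a* (ENSMUSG00000020178, chromosome 10, 75316877 to 75334784 in GRCm38) had the larger of the called rises. It had 15.7 CPM in Pde2A-/- replicate A, 19.9 in B, 29.4 in 14, 36.4 in D and 39.1 in 15, and in Pde2A+/+ hearts its lowest, median and highest values were 13.8, 14.998 and 18.2 CPM. Replicate A thus lay inside the wild-type range, replicate B just above it, and the other 3 hearts well above it. Its log2 fold change was 0.83 ± 0.20 (SE; edgeR, adjusted p = 0.0173), a 1.78-fold rise, with 4 of 5 Pde2A-/- hearts above all Pde2A+/+ hearts. The rise rested partly on single hearts: without replicate D it was 0.72 (adjusted p = 0.0563) and without replicate 15 it was 0.68 (adjusted p = 0.0504), whereas without replicate A it was 0.98 (adjusted p = 0.00132). No other gene overlaps the exons of *Adora2a*, and 0.834% of the reads over it were on the opposite strand.

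The level of *Adora2a* among Pde2A-/- hearts ran alongside that of hypoxia-induced genes. A list of 12 such genes, led in size of change by *Ndrg1* (log2 fold change 2.31) and the oxygen sensor *Egln3* (1.98), had 11 genes higher past the adjusted p and 0 lower, with a median log2 fold change of 1.146. Its summed level was 2747 CPM in Pde2A-/- replicate A, 3655 in B, 4696 in 14, 4899 in D and 5870 in 15, which is the order of the hearts by *Adora2a*. In Pde2A+/+ hearts the list spanned only 2445 to 2884 CPM, and replicate E, with 18.2 CPM of *Adora2a*, had 2543 CPM of it. Other lists ran in nearly this order in Pde2A-/- hearts, with 14 and D exchanged. The macrophage list had 307 CPM in A, 363 in B, 408 in 14, 392 in D and 417 in 15. The epicardial list had 317, 370, 491, 483 and 516 CPM in the same hearts. The endothelial, cardiomyocyte and erythroid lists ran in other orders. The part of any of these lists in the change of *Adora2a* was not tested. By Pearson's r of log2 CPM after each genotype's mean was taken off, a measure of likeness, the 3 genes most like *Adora2a* over the 11 hearts were *Alkbh5* (0.985), *Mt1* (0.980) and *Kdm6b* (0.977), out of 14023 genes whose mean reached 1 CPM. The median r with all these genes was −0.03 and their 99th percentile was 0.925, so high values were common, and all points share 11 libraries.

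**Figure D3:**
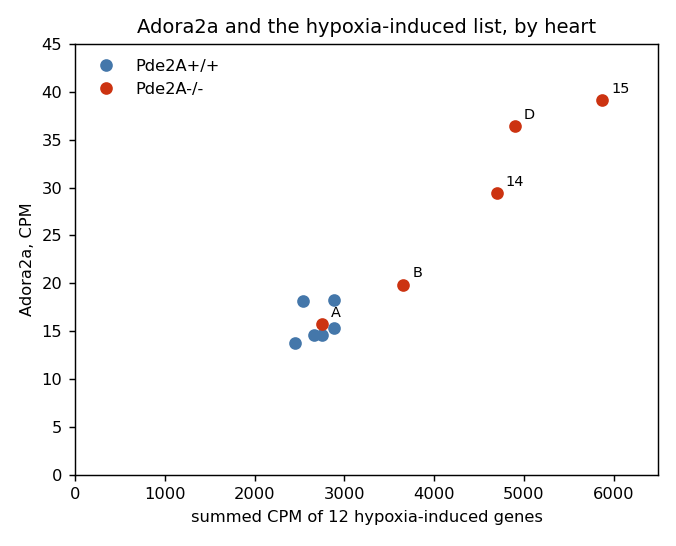
*Adora2a* in CPM against the summed CPM of 12 hypoxia-induced genes, 1 point per heart (blue, 6 Pde2A+/+; red, 5 Pde2A-/- with their replicate names). Replicate A lies among the wild-type hearts, and replicates B, 14, D and 15 follow in the same order on both axes, up to 39.1 CPM of *Adora2a* at 5870 CPM of the list.

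*Adora1* (ENSMUSG00000042429, chromosome 1, 134199223 to 134235431) encodes the inhibitory receptor that is best known in cardiac muscle. Its values were 22.4 CPM in Pde2A-/- replicate A, 22.5 in B, 24.3 in 14, 27.4 in D and 17.0 in 15, against 19.5, 22.0 and 28.6 CPM as lowest, median and highest in Pde2A+/+ hearts. Replicate 15, the heart with the most *Adora2a*, had the least *Adora1* of all 11 hearts, and the other 4 lay inside the wild-type range. The log2 fold change was −0.03 with a 95% interval from −0.29 to 0.24 (adjusted p = 0.916, edgeR's quasi-likelihood test), which leaves room for a small change in either direction. On the opposite strand *Mybph* covers 20.1% of the exon bases of *Adora1*. Reads were counted by strand here. With reads of both strands, a read over the shared bases is counted on neither gene. *Adora1* then had fewer counts in every heart, for example 778 in place of 952 in Pde2A-/- replicate B. The log2 fold change from these reduced counts was 0.01.

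The balance of the stimulatory and the inhibitory receptor was read per heart as the ratio of *Adora2a* to *Adora1* in CPM per kb. It was 1.301 ± 0.101 in Pde2A+/+ hearts (SD, n = 6), from 1.16 to 1.42. In Pde2A-/- hearts it was 1.32 in replicate A, 1.67 in B, 2.29 in 14, 2.51 in D and 4.35 in 15. The ratio of replicate A lay inside the wild-type range and the other 4 lay above it. Of the summed level of the 4 receptors, *Adora2a* took 50.1% to 56.1% in Pde2A+/+ and 55.1% to 78.4% in Pde2A-/- hearts, and *Adora1* 39.6% to 43.96% and 18.0% to 41.65%. These shares restate the values above and were not tested.

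*Adora2b* (ENSMUSG00000018500, chromosome 11, 62248984 to 62266453), the low-affinity stimulatory receptor, was sparse, with 14 to 39 counts per heart. It had 0.548 CPM in Pde2A-/- replicate A, 0.685 in B, 0.771 in 14, 1.08 in D and 1.05 in 15, against 0.366, 0.546 and 1.06 CPM as lowest, median and highest in Pde2A+/+ hearts. The genotypes overlapped, since Pde2A+/+ replicate 11 was nearly as high as the highest Pde2A-/- heart. The log2 fold change was 0.50, with a 95% interval from −0.12 to 1.13 (adjusted p = 0.260, edgeR's quasi-likelihood test). Without Pde2A+/+ replicate 11 it was 0.76 (adjusted p = 0.0596).

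*Adora3* (ENSMUSG00000000562, chromosome 3, 105870858 to 105908926), the second inhibitory receptor, is known from mast cells and other leukocytes. It had 1 count in Pde2A-/- replicates A, B and 15, 3 counts in D and 4 in 14, and 3 to 6 counts in Pde2A+/+ hearts. In CPM this is 0.0520 ± 0.0364 (SD, n = 5) against 0.116 ± 0.0248 (n = 6), with 3 of 5 Pde2A-/- hearts below all Pde2A+/+ hearts (log2 fold change −1.12 ± 0.45, SE; edgeR, adjusted p = 0.0965). A difference was not detectable at this depth after adjustment. The neighbouring gene *Tmigd3* shares 20.9% of the exon bases of *Adora3* on the same strand, and a read that lies on both is counted on neither, so the level of *Adora3* is a lower limit. Among 7 mast cell genes, *Cpa3* was lower (log2 fold change −1.73) and *Kit*, which other cells also use, was higher (0.65). The largest differences of the list were those of *Ms4a2* (−2.20, adjusted p = 0.108, edgeR) and *Tpsb2* (−2.11, adjusted p = 0.0796), both sparse, and in all 4 genes did not pass, while *Fcer1a*, with 3 counts in all, was not tested. The summed level of this list, most of it *Kit*, was 43.1 to 62.9 CPM in Pde2A-/- and 32.5 to 41.6 CPM in Pde2A+/+ hearts, and its part in the values of *Adora3* was not tested.

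**Figure D4:**
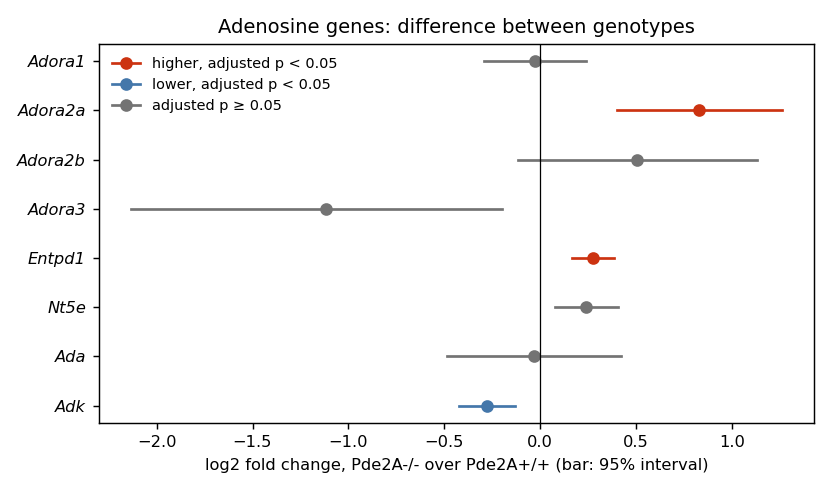
Log2 fold change of each gene in Pde2A-/- over Pde2A+/+ hearts with its 95% interval, from edgeR's fit over 5 and 6 hearts. *Adora2a* and *Entpd1* (red) were higher and *Adk* (blue) lower at an adjusted p under 0.05; for *Nt5e* and *Adora3* the interval excludes 0 but the p adjusted over all genes did not pass.

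Both ectonucleotidases had small, even differences. *Entpd1* (ENSMUSG00000048120, chromosome 19, 40612366 to 40741602) had 34.0 CPM in Pde2A-/- replicate A, 32.1 in B, 33.1 in 14, 31.8 in D and 34.2 in 15. Its lowest, median and highest values in Pde2A+/+ hearts were 26.0, 26.7 and 30.5 CPM, so that the genotypes did not overlap. It rose by 0.28 ± 0.05 on the log2 scale (SE; edgeR, adjusted p = 0.00440), a 1.21-fold rise, and stayed past the adjusted p in 11 of 11 fits that each left out 1 heart, between 0.26 and 0.31. Unlike *Adora2a*, the Pde2A-/- values lay close together, with an SD of 1.10 CPM, and replicate A was among the high ones.

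CD39 is known from endothelium and macrophages, and markers of both were read beside *Entpd1*. Of 15 macrophage genes, 13 were higher past the adjusted p and 0 lower, with a summed level of 307 to 417 CPM in Pde2A-/- and 149 to 235 CPM in Pde2A+/+ hearts. Of 13 endothelial genes, 5 were higher, 1 (*Cldn5*, log2 fold change −0.79) was lower and 7 did not pass, *Cdh5* among them (0.00), and their summed level was 1868 to 2068 CPM against 1465 to 1748 CPM. Of 8 fibroblast genes, 3 were higher and 0 lower, and their sums overlapped (7098 to 11494 against 5990 to 11079 CPM). No gene of these lists was at 0. The part of any of them in the rise of *Entpd1* was not tested, and in whole hearts more cells of a type and more RNA per cell cannot be told apart.

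*Nt5e* (ENSMUSG00000032420, chromosome 9, 88327197 to 88372092), which makes the adenosine itself, had 11.3 CPM in Pde2A-/- replicate A, 12.8 in B, 10.6 in 14, 10.9 in D and 10.6 in 15. The lowest, median and highest Pde2A+/+ hearts had 8.88, 9.22 and 10.4 CPM. All 5 Pde2A-/- hearts lay above all Pde2A+/+ hearts, although the lowest of them and the highest wild-type heart were close. With a log2 fold change of 0.24 ± 0.08 (SE), the adjusted p of 0.0521 missed the threshold (edgeR). It passed with DESeq2 (adjusted p = 0.0140), with edgeR's stricter filter on counts (0.0391), with globin genes left out (0.0472), and without Pde2A+/+ replicate 11 (0.0486) or 8 (0.0460). The other alternatives gave adjusted p values up to 0.101, the highest without Pde2A-/- replicate B. The ratio of *Entpd1* to *Nt5e* in CPM per kb was 4.43 ± 0.236 in Pde2A+/+ and 4.56 ± 0.442 in Pde2A-/- hearts, a difference smaller than either SD.

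Of the enzymes that remove adenosine, *Adk* fell and *Ada* showed no detectable difference. *Adk* (ENSMUSG00000039197, chromosome 14, 21052574 to 21448569), the high-affinity route at low adenosine, had 142.5 CPM in Pde2A-/- replicate A, 133.6 in B, 128.7 in 14, 132.3 in D and 133.2 in 15. Pde2A+/+ hearts had 141.2, 158.2 and 185.4 CPM as lowest, median and highest. Replicate A lay just above the lowest wild-type heart and the other 4 below all of them, and the Pde2A-/- hearts were closer together (SD 5.12 CPM, n = 5) than the Pde2A+/+ hearts (SD 16.9 CPM, n = 6). The log2 fold change of *Adk* was −0.28 ± 0.07 (SE; edgeR, adjusted p = 0.0173), and with each heart left out in turn it lay between −0.32 and −0.23 and passed the adjusted p in 11 of 11 fits, the weakest at 0.0495 without Pde2A-/- replicate 14. Of the 12 cardiomyocyte genes, 10 had a negative log2 fold change (median −0.23), and their part in the fall of *Adk* was not tested.

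*Ada* (ENSMUSG00000017697, chromosome 2, 163726584 to 163750239) had 3.05 CPM in Pde2A-/- replicate A, 2.97 in B, 2.64 in 14, 1.61 in D and 2.31 in 15, against 1.87, 2.48 and 3.78 CPM as lowest, median and highest in Pde2A+/+ hearts. The genotypes overlapped almost fully. The log2 fold change was −0.03, with a 95% interval from −0.49 to 0.42 (adjusted p = 0.936, edgeR's quasi-likelihood test). The highest value of all was that of Pde2A+/+ replicate 7, the heart with thymus genes; without that heart the log2 fold change was 0.11 (adjusted p = 0.764, edgeR). The part of those genes in the values of *Ada* was not tested. The ratio of *Adk* to *Ada* in CPM per kb was 15.9 ± 4.99 in Pde2A+/+ and 13.2 ± 3.62 in Pde2A-/- hearts, which differed by less than either SD.

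A wider list of 66 genes in 8 roles was read, of which 60 held enough counts. It covers purine handling, P2 receptors and G protein alpha subunits, and its genes are named purine genes here. Some of them, such as *Nt5c3* and *P2ry6*, act on or sense pyrimidines. By edgeR's quasi-likelihood test 8 of the 60 were higher (13.3%, against 8.93% of all genes) and 7 lower (11.7%, against 5.67%), with a median log2 fold change of 0.02. The 8 G alpha subunits gave 2 of these lower calls and 0 of the higher ones. Shares over all genes include many genes with few counts and were not matched for level. The number of lower calls changed with the hearts used. With 1 heart left out they numbered 0 (without Pde2A-/- replicate D or Pde2A+/+ replicate 6) to 9 (without Pde2A-/- replicate A). They numbered at most 4 without any heart other than Pde2A-/- replicate A or B. Lower calls over all genes numbered 414 to 2165 in the same fits. All 7 genes kept a negative log2 fold change throughout, so the calls lay near the threshold. *Entpd4* had 0 counts in every heart. Reads that it shares with its near-identical copy *Entpd4b* could be missing from its count, so its level could not be read.

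**Figure D5:**
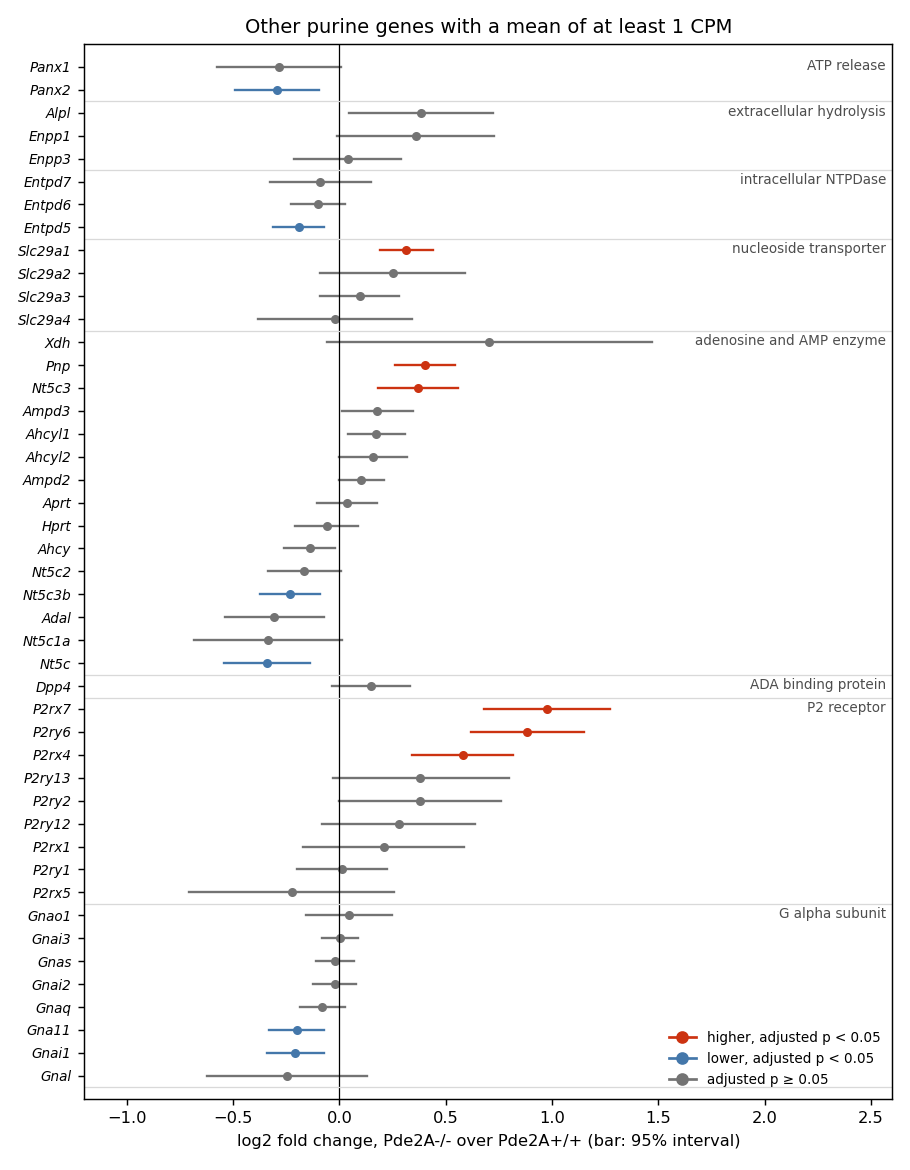
Log2 fold change with 95% interval for the 45 further purine genes whose mean reached 1 CPM, grouped by role (5 Pde2A-/- against 6 Pde2A+/+ hearts; red higher and blue lower at an adjusted p under 0.05, edgeR). The P2 receptors *P2rx7*, *P2ry6* and *P2rx4* lie farthest to the right among called genes.

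Receptors for ATP and other nucleotides held the 3 largest rises among called purine genes of at least 1 CPM. Of 14 P2 receptors tested, 3 were higher and 0 lower by edgeR, and DESeq2 also called 3 higher and 0 lower. At an unadjusted p under 0.05 (edgeR) there were 4, the other being *P2ry10*, which went down (log2 fold change −3.53, adjusted p = 0.0830). *P2ry10* was sparse, with a median of 0.115 CPM in Pde2A+/+ hearts and 2.22 CPM in the highest of them. The ATP-gated channel *P2rx7* went from 3.41 ± 0.662 CPM in Pde2A+/+ to 6.72 ± 0.731 CPM in Pde2A-/- hearts (log2 fold change 0.98 ± 0.14, SE; edgeR, adjusted p = 6.04e-04). The UDP receptor *P2ry6* rose by 0.88 and the ATP-gated channel *P2rx4* by 0.58 on the log2 scale. In each of these 3 genes all 5 Pde2A-/- hearts lay above all Pde2A+/+ hearts and all 11 fits with a heart left out passed. All 3 are also known from macrophages, whose genes were higher as given above; their part was not tested.

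Among nucleoside transporters, *Slc29a1*, which encodes the equilibrative carrier ENT1 and moves adenosine across the cell membrane, had 71.6 ± 5.13 CPM in Pde2A-/- and 57.5 ± 3.60 CPM in Pde2A+/+ hearts. This rise of 0.32 ± 0.06 on the log2 scale (SE; edgeR, adjusted p = 0.00428) put all 5 Pde2A-/- hearts above all Pde2A+/+ hearts and passed in 11 of 11 fits with a heart left out. The concentrative carrier *Slc28a2* was lower (log2 fold change −1.05, adjusted p = 0.0264, edgeR) at 157 counts in all, and lost the call without Pde2A-/- replicate D (0.0619 at most) or Pde2A+/+ replicate 6 or H. The other 4 transporters tested did not pass.

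Of 18 intracellular enzymes of adenosine, AMP and their products, 4 were higher and 2 lower. Purine nucleoside phosphorylase, *Pnp*, which acts on the inosine made by *Ada*, rose by 0.40 (18.0 ± 1.02 against 13.6 ± 1.05 CPM). The overlapping copy *Pnp2* rose by 1.82 at 112 counts in all. Reads that the 2 genes share could be missing from both counts. Red cells are also known to use ENT1 and purine nucleoside phosphorylase, and 7 of 8 erythroid genes were higher and 0 lower (median log2 fold change 2.89), with a summed level of 453 to 921 CPM in Pde2A-/- and 111 to 493.2 CPM in Pde2A+/+ hearts. Their part in the rises of *Slc29a1* and *Pnp* was not tested. The pyrimidine 5′-nucleotidase *Nt5c3* rose by 0.37 and guanine deaminase, *Gda*, by 1.42, the latter not past the adjusted p without Pde2A-/- replicate D or 15 (0.0549 at most). The nucleotidases *Nt5c* and *Nt5c3b* fell by 0.34 and 0.23 on the log2 scale. These falls passed in 6 and 4 of the 11 fits with a heart left out, and not without Pde2A-/- replicate 14, D or 15, or Pde2A+/+ replicate 7 or 6, and for *Nt5c3b* also 8 or E.

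Of 4 ATP release genes tested, *Panx2* was lower (−0.29, adjusted p = 0.0470, edgeR). This call held in 1 of 11 fits with a heart left out, the one without Pde2A-/- replicate A. With all hearts, it was also lost with no filter on counts and with the naming style of the replicates (letter or number) as a term. None of 6 further ectoenzymes passed (edgeR, 1 at an unadjusted p under 0.05; DESeq2 0), and their log2 fold changes ran from −1.92 (*Acpp*, 95% interval −3.96 to 0.09) to 0.42 (*Entpd2*, −0.25 to 1.10). The medians of *Acpp* were close, 0.174 CPM in Pde2A-/- and 0.197 CPM in Pde2A+/+ hearts, and the highest Pde2A+/+ heart had 2.45 CPM. *Alpl*, a phosphatase that can also make adenosine from AMP, had 0.38 (adjusted p = 0.117, edgeR). Of 3 intracellular relatives of *Entpd1* tested, *Entpd5* was lower (−0.19, adjusted p = 0.0354), in 3 of 11 fits with a heart left out, those without Pde2A-/- replicate A or B or Pde2A+/+ replicate 7. *Dpp4*, whose product holds adenosine deaminase at the cell surface in some species, had a log2 fold change of 0.15 (adjusted p = 0.268).

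Of 8 G protein alpha subunits, 2 were lower and 0 higher. *Gnas*, the stimulatory subunit, had 1637 ± 48.1 CPM in Pde2A-/- and 1660 ± 59.0 CPM in Pde2A+/+ hearts, with a 95% interval of its log2 fold change from −0.11 to 0.07. The inhibitory subunit *Gnai1* fell by 0.21 and *Gna11* by 0.20 on the log2 scale, past the adjusted p in 4 and 3 of 11 fits with a heart left out. Neither passed without Pde2A-/- replicate 14, D or 15 or Pde2A+/+ replicate 6, 8, H or E, nor *Gna11* without Pde2A+/+ replicate 11. The more abundant inhibitory subunits *Gnai2* and *Gnai3* did not pass (488 ± 25.4 against 495 ± 21.1 CPM and 135.6 ± 4.31 against 135.3 ± 4.33 CPM).

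By the same measure of likeness as for *Adora2a*, the 3 genes most like *Entpd1* over the 11 hearts were *Plscr1* (r = 0.928), *Pold2* (0.926) and *Cadps* (0.913), and those most like *Adk* were *Dpysl3* (0.937), *Slc12a2* (0.936) and *Med14* (0.932). The 99th percentile over all genes compared was 0.686 for *Entpd1* and 0.822 for *Adk*.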

How the data were processed

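The authors mapped reads from stranded mRNA libraries, sequenced from a single end, to GRCm38 (mm10) with STAR and deposited its raw read counts per gene for each heart; the version and annotation are not given in the sources used here. Genes were named from GENCODE M21 (55227 of 55487 identifiers matched). Sense-strand counts, the larger of the stranded totals, were used; 19.6% to 22.4% of reads lay on no single gene. Genes needed 10 counts summed over 11 hearts, which 24177 had, and were fitted with edgeR 4.0.16 in R 4.3.3 (TMM, quasi-likelihood test, Benjamini-Hochberg adjustment); log2 CPM used a prior count of 2. Hearts were not paired, and the test set the difference between genotypes against the spread between the hearts of a genotype. The litter of each heart was not given, so litter could not be a term and hearts were taken as independent. DESeq2 1.42.0, other scalings, filters, strands and left-out hearts were tried. The members and lists were chosen with earlier results of these data known.

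Named are all 8 members; called purine genes, at most 3 per role and direction; the 2 largest changes of a marker list where a result turns on it; and the 3 genes most like each called member with a mean of at least 1 CPM. *Nt5c3*, *Kit*, *Cpa3*, *Fcer1a*, *Alpl*, *Acpp*, *Entpd2*, *P2ry10*, *Cdh5*, *Cldn5*, *Tnni1*, *Ttn*, *Nkx2-5*, *Dpp4*, *Gnas*, *Gnai2*, *Gnai3*, *Entpd4*, *Tmigd3* and *Mybph* were named after their values were seen. Plots were made with Python 3.11.15 and matplotlib 3.10.9.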

Additional observations from a re-analysis of the deposited data

Results flagged for a closer look

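Over 66 groups of hearts (the 8 genes, the called purine genes and the marker lists, by genotype), 4 had a heart far from the others by Dixon's criterion, which chance flags in about 1 of 20 groups. None was a group of the 8 genes. The thymus list in Pde2A+/+ replicate 7 was high, with a gap of 0.916 of the range. *Slc28a2* (0.726) and *P2rx4* (0.659) were low in Pde2A+/+ replicate 8, and *Gnai1* (0.748) was low in Pde2A-/- replicate 14.

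Reads on the strand opposite to *Adora1* numbered 139 in Pde2A-/- replicate B and 68 in D, against at most 34 in Pde2A+/+ hearts. The main fit did not use them. With reads of both strands, *Adora1* had fewer counts in every heart than on its sense strand. The opposite-strand gene *Mybph*, which overlaps it, had between 7 and 250 counts per heart. Reads opposite to *Entpd1* numbered 22 in Pde2A-/- replicate 14, against at most 9 in Pde2A+/+ hearts.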

How the results depend on the processing

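*Adora2a*, *Entpd1* and *Adk* kept their direction and their adjusted p under 0.05 with DESeq2, its size factors, both other filters, both strands' reads, no globin genes and the naming style of the replicates (letter or number) as a term. The exceptions were fits with a heart left out, where *Adora2a* lost its call without Pde2A-/- replicate D or 15. With a heart left out, between 1 (without Pde2A-/- replicate D or 15) and 3 of the 8 genes were higher, and 1 was lower throughout; among purine genes between 0 (without Pde2A-/- replicate D or Pde2A+/+ replicate 6) and 9 were lower; among all genes between 1288 (without Pde2A-/- replicate D) and 2887 (without A) were higher and between 414 and 2165 lower, without the same hearts. The cause was not tested. Requiring also a fold change of at least 1.5, which by construction leaves fewer genes, left 1 member higher (*Adora2a*) and 0 lower, 4 purine genes higher and 1 lower, and 981 genes higher and 215 lower in all. DESeq2 called 2354 genes lower, against 1372. With the length of the longest transcript, 4 of 8 members kept their place in the order of levels. Depth limits *Adora3* and *Adora2b*, whose intervals are wide; the other 6 members had at least 58 counts in every heart.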
